A study of Homo sapiens with 16 samples.

Results

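The 9 genes described here carry interferon signals from the cell surface to the nucleus: the receptor chains IFNAR1, IFNAR2, IFNGR1 and IFNGR2, the kinase JAK1, the transcription factor STAT2 and the interferon regulatory factors IRF1, IRF7 and IRF9. They were chosen by name and matched to the gene names of the deposited count tables, where all 9 were found among 60606 names. Messenger RNA was sequenced in 16 libraries from 2 established clear cell renal carcinoma lines. The 12 libraries of 786-O, 3 in each of 4 groups, came from cells labelled SETD2 WT or SETD2 KO (genotype null) that were kept for 72 hours in DMSO, the solvent, or in A1331852 at 100 nM, which blocks the survival protein BCL-XL. The 4 libraries of A498, 2 in each group, came from untreated cells labelled SETD2 deficient and from cells labelled SETD2 addback. SETD2 is the methyltransferase that places trimethylation on lysine 36 of histone H3. The labels do not say whether the knockout is 1 clone, how SETD2 was disrupted or restored, or whether libraries of a group came from separate cultures, so the p-values measure the spread between libraries, which may be technical.

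Type I interferons bind a receptor made of IFNAR1 and IFNAR2, and interferon gamma binds one made of IFNGR1 and IFNGR2. JAK1 sits on IFNAR2 and IFNGR1 and phosphorylates STAT proteins once the ligand has bound. STAT2 and IRF9 then act together in the complex ISGF3 on interferon-stimulated response elements, whereas STAT dimers bind gamma-activated sites, such as the one known upstream of IRF1. IRF1 and IRF7 are both targets of this signal and activators of further interferon and antiviral genes.

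Each library held between 14172118 and 36037616 counted fragments, and 1.44% to 5.91% of them lay on mitochondrial genes, with the lowest shares (1.44% to 1.69%) in the KO libraries under A1331852. All A1331852 libraries and replicate 3 of both DMSO groups are labelled batch 1, replicates 1 and 2 of both DMSO groups batch 2, and A498 batch 3, so cell line and batch cannot be told apart. WT A1331852 replicate 3 stood farthest from the others of its group, and results of the 9 genes that rest on it are also given without it. Results of the other pathway genes were not computed without it. Levels are given in counts-per-million units (CPM), scaled by TMM factors. The summed level of 6 leukocyte markers reached at most 2.64 CPM. Under DMSO it was 0.190 to 0.342 CPM in WT and 0.936 to 1.501 CPM in KO, and under A1331852 0.270 to 0.446 CPM in WT and 1.04 to 1.54 CPM in KO, with CD3E at 0 in all 4 groups of 786-O and PTPRC at 0 in both KO groups. Most of the KO sum was CD14, whose mean under DMSO was 0.124 CPM in WT and 1.00 CPM in KO. Under A1331852 it was 0.363 and 1.23 CPM. The summed level of 3 endothelial markers reached at most 0.373 CPM, and the 5 renal carcinoma markers summed to between 2418 and 7810 CPM. Most of that was VIM, with group means of 2230 to 6190 CPM. CA9, also on that list, was 0 in both WT groups of 786-O and had a mean of at most 0.810 CPM elsewhere. Within 786-O, 3 fibroblast markers summed to 5.21 to 10.1 CPM in WT and 1.61 to 2.91 CPM in KO under DMSO, and to 7.57 to 8.98 CPM in WT and 1.12 to 1.59 CPM in KO under A1331852. Most of this was LUM, with means of 5.97 CPM in WT and 1.60 CPM in KO under DMSO, and 7.33 and 1.13 CPM under A1331852. The part of these shifts, or of the mitochondrial share, in the results below was not tested. In cultures sequenced in bulk, fewer cells with a transcript and less of it per cell cannot be told apart.

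SETD2 itself was read first. Under DMSO it stood at 68.6, 70.9 and 65.0 CPM in replicates 1, 2 and 3 of WT and at 30.0, 27.9 and 30.0 CPM in KO (log2 fold change -1.21 ± 0.18 SE, edgeR adjusted p = 0.000739). Under A1331852 it stood at 71.2, 68.6 and 63.0 CPM in WT and at 29.4, 47.7 and 52.5 CPM in KO, so that KO replicates 2 and 3 lay nearer to WT than any KO library in DMSO (log2 fold change -0.65 ± 0.18 SE, edgeR adjusted p = 0.0168, and up to 0.0844 in fits of batch 1 or of those 2 groups alone). In A498 it was 41.1 and 59.4 CPM in the libraries labelled deficient and 44.9 and 53.8 CPM in those labelled addback, which overlap. SETD2 transcript therefore did not separate the labels of A498, and what they say of the protein was not measured here.

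A comparison of 2 groups was made 5 times, and a gene was called when its edgeR quasi-likelihood p, Benjamini-Hochberg adjusted over all genes tested, was under 0.05. In those comparisons 7 of the 9 genes were called at least once and 2, IFNGR1 and STAT2, in none. The share of all genes called at least once in the 5 was not computed, so the 7 cannot be set against a background. Under DMSO, 2 of the 9 were called between KO and WT, 1 in each direction, where 18.5% of 16260 genes were called. Under A1331852, 6 of the 9 were called, 3 higher and 3 lower in KO, where 28.2% of all genes were. With 1 library left out, the count under A1331852 ran from 3 (JAK1, IRF1 and IRF7, without WT replicate 2 or KO replicate 2) to 6 (without KO replicate 1, with STAT2 in place of IFNAR1), and it was 5 without WT replicate 3. Under DMSO it was 1, IFNAR2, without WT replicate 1 or 3 or KO replicate 3. A1331852 against DMSO called 0 of the 9 in WT cells (1 at an unadjusted p under 0.05, and 0 by DESeq2 and by limma voom), where 0.141% of all genes were called, and 2 of the 9 in KO cells, where 13.5% were (1 of the 9 without any one of the 3 KO DMSO libraries or without KO A1331852 replicate 2). Between deficient and addback A498 cells, 2 of the 9 were called, where 30.2% of 15424 genes were, and 4 were called without either deficient library. A count of 2 of 9 lies near those background shares. The median log2 fold change of the 9, KO over WT, was 0.12 under DMSO and 0.31 under A1331852, where those of all genes tested were -0.02 and -0.01.

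**Figure D1:**
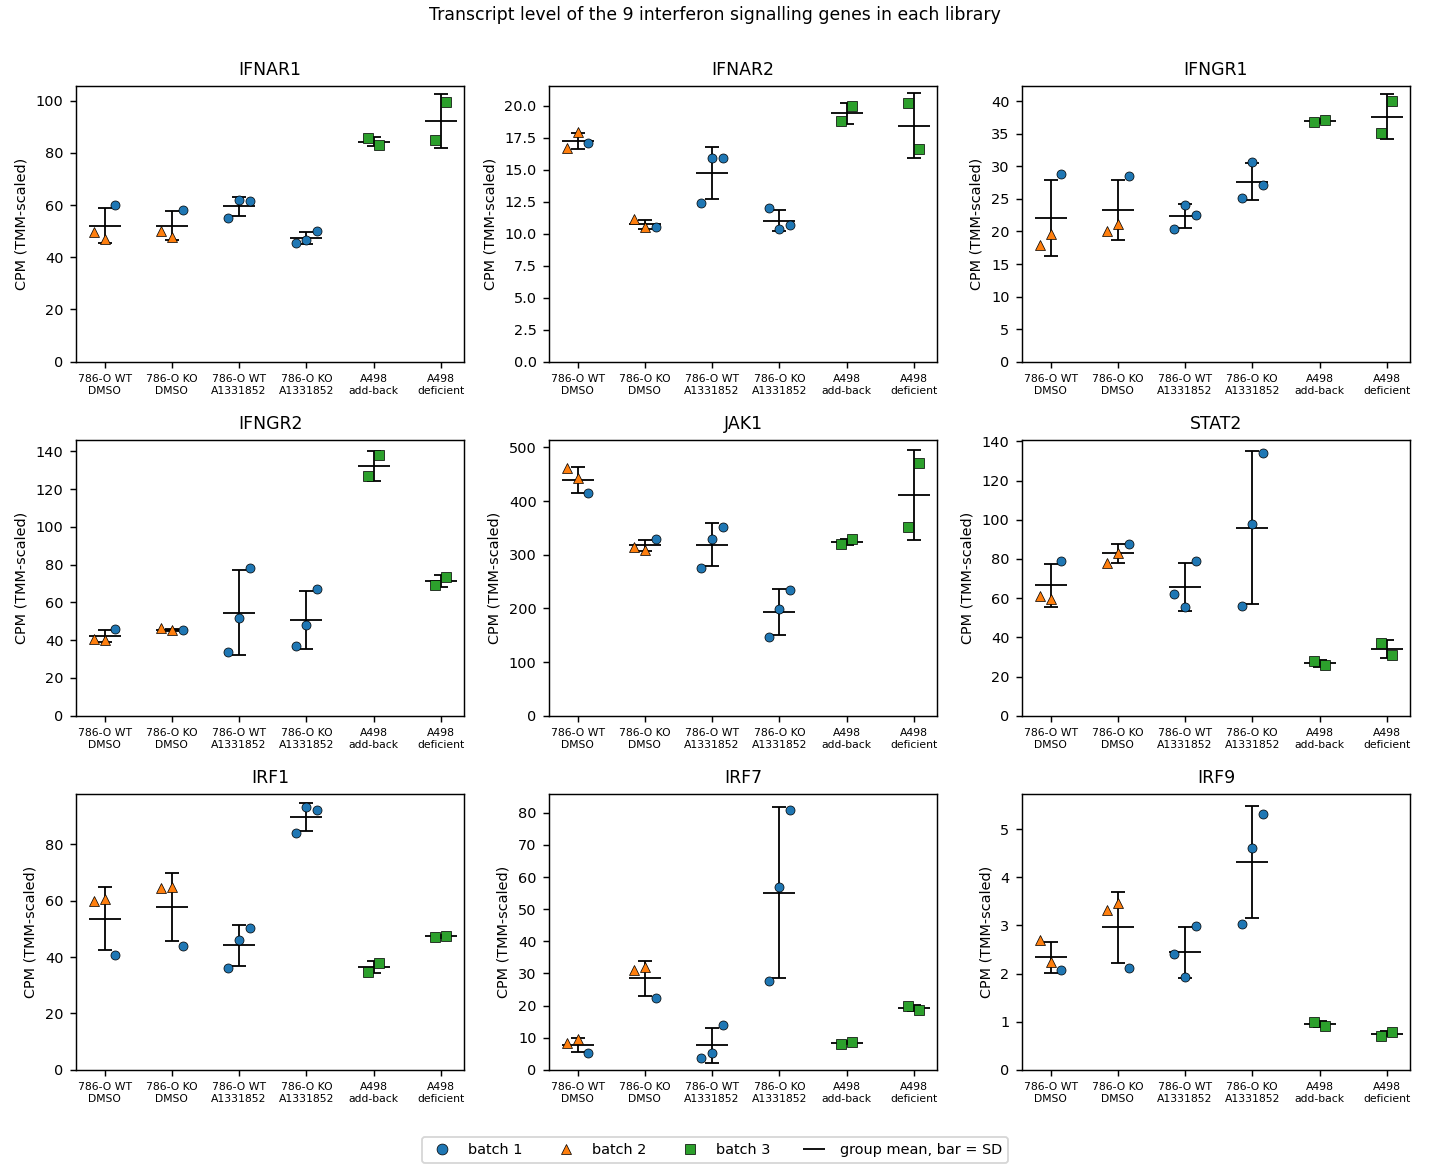
Level of each gene (vertical axis, CPM, from 0) in each of the 16 libraries (points, shaped by batch), with the group mean and SD (bars, n = 3 in 786-O and n = 2 in A498). IRF7 lies higher in both KO groups of 786-O than in the WT group of the same treatment, and JAK1 lowest in KO cells under A1331852.

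**Figure D2:**
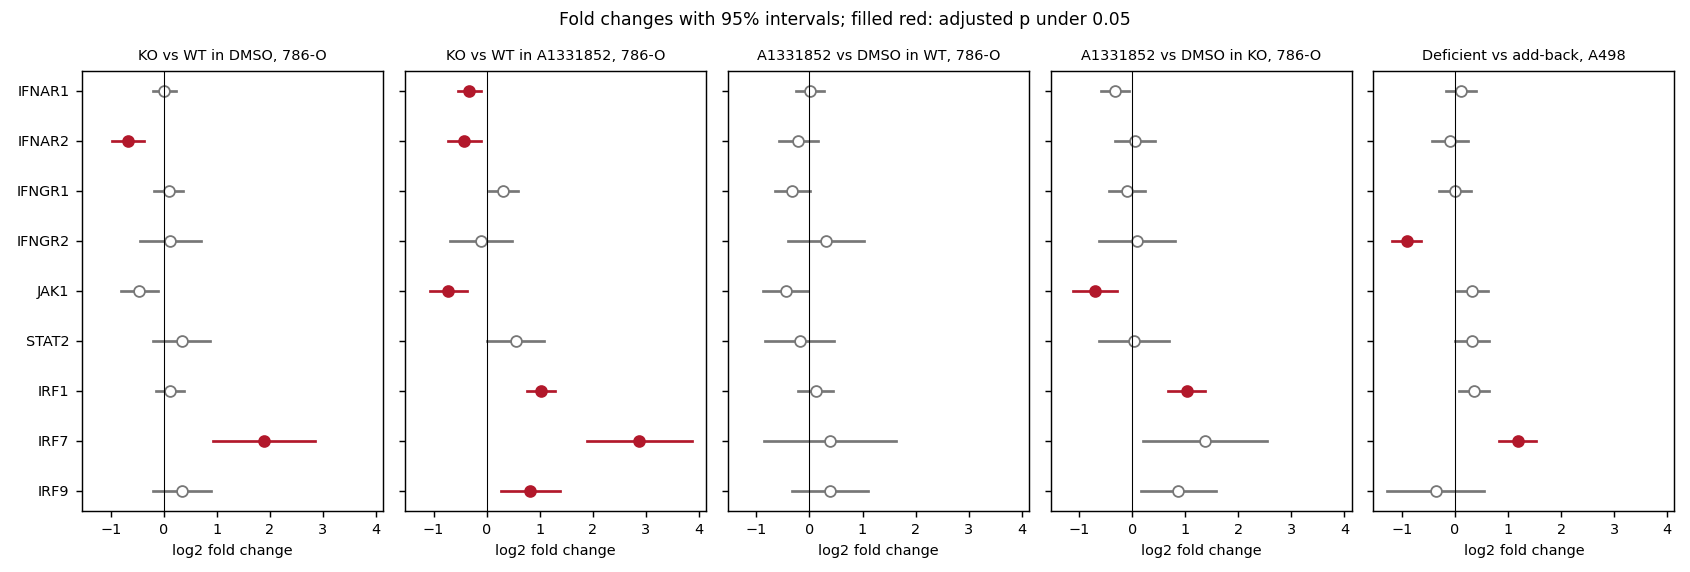
Log2 fold change (horizontal axis) of each gene in the 5 comparisons of 2 groups, with 95% intervals from the edgeR fit; filled red points have an adjusted p under 0.05. The largest change is that of IRF7, 2.88 on the log2 scale in KO over WT cells under A1331852, and none of the 9 is called for A1331852 in WT cells.

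IFNAR2 (chromosome 21, 33205282 to 33265675, plus strand), the chain of the type I receptor that holds the ligand tightly, was lower in KO than in WT cells of 786-O. Under DMSO it stood at 16.7, 17.9 and 17.1 CPM in WT replicates 1, 2 and 3 and at 11.1, 10.5 and 10.5 CPM in KO. Every KO library lay below every WT library, and the difference was 0.625 times or -0.68 ± 0.14 (SE) on the log2 scale (edgeR adjusted p = 0.00589). Within batches it was -0.68 in batch 1, with 1 library per genotype, and -0.65 in batch 2, with 2, on the scale of log2(CPM + 0.5). Under A1331852 the WT libraries held 12.4, 15.9 and 15.9 CPM and the KO libraries 11.97, 10.4 and 10.7 CPM. The groups came within 1 CPM of each other there, and the change of -0.42 ± 0.14 (edgeR adjusted p = 0.0449) lost its call when any of 4 libraries was left out (WT replicate 2 or 3, KO replicate 2 or 3; adjusted p up to 0.146). It was also lost with RLE factors, limma voom, no low-count filter, no batch term, batch 1 alone and those 2 groups alone (adjusted p up to 0.176). The test of whether A1331852 acted differently in the genotypes gave 0.26 ± 0.20 with an adjusted p of 0.709. In A498 the libraries overlapped, at 20.2 and 16.6 CPM in deficient and 18.8 and 19.98 CPM in addback cells.

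IFNAR1 (chromosome 21, 33324387 to 33359864, plus strand) is the second chain of that receptor. Under DMSO it was 49.6, 47.0 and 59.9 CPM in WT and 50.2, 47.8 and 58.3 CPM in KO, with both batch 1 libraries above the 4 of batch 2 and the genotypes overlapping. Under A1331852 it was 55.2, 61.9 and 61.4 CPM in WT and 45.5, 46.6 and 50.2 CPM in KO. These groups did not overlap, and the change of -0.33 ± 0.10 was called (edgeR adjusted p = 0.0313), although not without WT replicate 2, KO replicate 1 or KO replicate 2 (adjusted p up to 0.101), nor with no low-count filter, no batch term, batch 1 alone or those 2 groups alone (up to 0.194). The difference between the A1331852 responses of the genotypes was -0.34 ± 0.14 with an adjusted p of 0.42. A498 cells held more IFNAR1, at 84.8 and 99.6 CPM in deficient and 85.6 and 83.1 CPM in addback libraries, which overlap.

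The ligand-binding chain of the interferon gamma receptor, IFNGR1 (chromosome 6, 137197483 to 137219449, minus strand), passed the test in no comparison. It stood at 17.9, 19.7 and 28.8 CPM in WT and 20.03, 21.2 and 28.5 CPM in KO under DMSO, where the batch 1 library was the highest of each genotype. Under A1331852 the KO libraries, at 25.1, 30.7 and 27.2 CPM, lay above the WT libraries, at 20.4, 24.0 and 22.5 CPM. That difference of 0.31 ± 0.13 had an edgeR adjusted p of 0.0848 (0.0553 to 0.248 with 1 library left out), and of 0.0357 once replicates with the same number were treated as pairs (a replicate block within treatments). In A498 IFNGR1 was 35.2 and 40.1 CPM in deficient and 36.8 and 37.2 CPM in addback cells, with an interval of -0.30 to 0.30 for the log2 fold change.

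IFNGR2 (chromosome 21, 33403413 to 33479348, plus strand), the chain that brings in JAK2, was the receptor gene called in A498, and it was called in no comparison of 786-O. It was 69.1 and 73.5 CPM in deficient and 127 and 138 CPM in addback libraries. Deficient cells thus held 0.530 times the level of addback cells, a log2 change of -0.92 ± 0.13 (edgeR adjusted p = 0.000104), and the call held under all 11 alternatives tried. In 786-O it was 40.6, 40.1 and 46.0 CPM in WT and 46.3, 45.2 and 45.2 CPM in KO under DMSO. Under A1331852 it spread from 33.6 through 51.6 to 78.4 CPM over WT replicates 1, 2 and 3 and over 36.9, 48.0 and 67.1 CPM in KO. Same-numbered libraries of the 2 genotypes lay close together there, with replicate 1 the lowest and replicate 3 the highest in both. KO over WT in 786-O under DMSO minus deficient over addback in A498 was 1.01 ± 0.38 with an edgeR adjusted p of 0.0935.

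JAK1 (chromosome 1, 64833223 to 65067754, minus strand), the kinase that both receptors share, was highest in WT 786-O cells in DMSO and lowest in KO cells under A1331852. Its level was 462, 443 and 414 CPM in WT and 315, 308 and 329 CPM in KO under DMSO. Under A1331852 it was 274, 329 and 353 CPM in WT and 147, 199 and 234 CPM in KO. In both treatments every KO library lay below every WT library. KO over WT was -0.46 ± 0.16 under DMSO, which was not called (edgeR adjusted p = 0.0648, 0.00692 with the replicate block within treatments, and 0.128 to 0.202 with 1 library left out). It was -0.72 ± 0.16, or 0.607 times, under A1331852, which was called (edgeR adjusted p = 0.00593) and stayed called under all 17 alternatives.

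A1331852 against DMSO gave JAK1 changes of -0.71 ± 0.19 in KO cells (edgeR adjusted p = 0.0303) and of -0.45 ± 0.19 in WT cells (adjusted p = 0.362). The 3 A1331852 libraries lay below the single DMSO library of batch 1 in both genotypes, which stood at 329 CPM in KO and 414 CPM in WT. The KO call was lost in the fit of batch 1 alone (adjusted p = 0.294), in that of the 2 KO groups alone (0.0955) and without any one of KO DMSO replicates 1, 2 and 3 or KO A1331852 replicates 1 and 2, with adjusted p up to 0.294. The difference between the responses was -0.26 ± 0.23 with an adjusted p of 0.748. In A498 JAK1 was 352 and 471 CPM in deficient and 319 and 328 CPM in addback cells, a change of 0.32 ± 0.14 that was not called (adjusted p = 0.0874) but was without deficient replicate 1 (0.53, adjusted p = 5.71e-05); without deficient replicate 2 it was 0.10 (adjusted p = 0.473). Across the lines, KO over WT in DMSO and deficient over addback in A498 were compared in 1 fit over 16 libraries, in which 13.2% of 17868 genes were called and 1 of the 9 was. That gene was JAK1, at -0.82 ± 0.25 (edgeR adjusted p = 0.0427); leaving out any of 9 of the 10 libraries compared lost the call (adjusted p up to 0.222), all but A498 deficient replicate 1. So did RLE or upper-quartile factors, a mean of at least 50 counts and no batch term (adjusted p up to 0.0921), so that 5 of 18 alternatives kept it.

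STAT2 (chromosome 12, 56341597 to 56360203, minus strand), the STAT that enters ISGF3 and signals for type I interferon, was called in no comparison. Under DMSO it was 61.2, 59.5 and 79.2 CPM in WT and 78.0, 83.0 and 87.8 CPM in KO, and under A1331852 62.4, 55.4 and 79.0 CPM in WT. The KO libraries under A1331852 ranged from 56.2 CPM in replicate 1 to 97.7 and 134 CPM in replicates 2 and 3, so 1 lay within the WT range and 2 lay above it. KO over WT under A1331852 was 0.55 ± 0.25 (edgeR adjusted p = 0.116). With the replicate block within treatments it was 0.49 with an adjusted p of 0.0437, without KO replicate 1 it was 0.83 with an adjusted p of 0.00782, and without KO replicate 3 it was 0.24 with an adjusted p of 0.442. A498 held less STAT2 than 786-O, at 37.3 and 30.9 CPM in deficient and 28.1 and 25.6 CPM in addback cells (0.32 ± 0.15, edgeR adjusted p = 0.121, and from 0.00335 without deficient replicate 2 to 0.553 without addback replicate 2).

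IRF9 (chromosome 14, 24161234 to 24168043, plus strand) is the DNA-binding part of ISGF3. It had the fewest counts of the 9 genes, 11 to 115 per library. Of the 1838 exon bases of its principal GENCODE 29 transcript, 1544 (84.0%) also lie on the same strand in exons of the read-through gene ENSG00000259529. Those are 23.9% of the 6471 exon bases that the files give for IRF9 over all its transcripts. Fragments shared by 2 genes were not counted by the command in the file headers, so fragments within these bases are missing from the IRF9 level as far as the overlap also holds in GENCODE 41, which the files used. For IFNAR2, 1965 of 2899 principal-transcript bases (67.8%), and 14.7% of all exon bases, are shared with ENSG00000249624.

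As counted over all its exons, IRF9 stood at 2.70, 2.24 and 2.07 CPM in WT and 3.32, 3.46 and 2.12 CPM in KO under DMSO, which overlap. Under A1331852 it stood at 2.40, 1.94 and 2.99 CPM in WT and 3.03, 4.62 and 5.31 CPM in KO. The lowest KO library lay just above the highest WT library there, and KO over WT was 0.83 ± 0.26 or 1.77 times (edgeR adjusted p = 0.0314). That call was lost without WT replicate 1 or 2 or KO replicate 2 or 3 (adjusted p up to 0.115), without the batch term, in batch 1 alone and in a fit of those 2 groups alone. A1331852 against DMSO in KO cells gave 0.87 ± 0.32, which was not called (edgeR adjusted p = 0.0977, and from 0.0479 without KO A1331852 replicate 1 to 0.559 without KO DMSO replicate 3). A498 held 0.709 and 0.783 CPM in deficient and 0.993 and 0.906 CPM in addback cells, from 11 to 18 counts a library, and the log2 fold change of -0.37 ± 0.43 was not called (adjusted p = 0.552).

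IRF1 (chromosome 5, 132440440 to 132508719, minus strand), the early interferon gamma response factor, separated KO cells under A1331852 from every other group. Under DMSO it was 59.8, 60.6 and 40.6 CPM in WT and 64.7, 65.0 and 43.9 CPM in KO. Both batch 1 libraries lay below the 4 of batch 2, and each KO library stood slightly above the WT library of the same number (0.12 ± 0.12, edgeR adjusted p = 0.574). Under A1331852 it was 36.1, 46.2 and 50.1 CPM in WT and 84.1, 93.2 and 92.1 CPM in KO. The KO libraries did not overlap with any other of the 16, and KO over WT was 1.03 ± 0.13 or 2.04 times (edgeR adjusted p = 0.000154), called under all 17 alternatives.

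A1331852 against DMSO changed IRF1 by 1.02 ± 0.16 in KO cells (edgeR adjusted p = 0.00255) and by 0.12 ± 0.15 in WT cells (adjusted p = 0.802). In KO cells the DMSO library of batch 1 held 43.9 CPM, below all 3 A1331852 libraries of that batch. The call was lost in batch 1 alone, with 1 DMSO library left per genotype (change of 1.03, adjusted p = 0.131), and without the batch term (0.63, adjusted p = 0.0682). The difference of the responses was tested over all genes, 0.295% of which were called, and called 0 of the 9 genes at the threshold (2 at an unadjusted p under 0.05; 1 by DESeq2, 0 by limma voom). For IRF1 that difference was 0.91 ± 0.18 with an edgeR adjusted p of 0.0565. With the replicate block within treatments it was 0.92 with an adjusted p of 0.0138, and IRF7 was called too. It was also called without WT A1331852 replicate 3 (adjusted p = 0.00628), and not without any one of the other 11 libraries (up to 0.245). In A498 IRF1 was 47.0 and 47.6 CPM in deficient and 34.8 and 38.0 CPM in addback cells, which did not overlap but were not called (0.36 ± 0.14, edgeR adjusted p = 0.0606, 0.0162 or 0.0213 without deficient replicate 1 or 2, and 0.457 or 0.270 without addback replicate 1 or 2).

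The windows from 250 bases before to 50 after each RefSeq start site were searched for the gamma-activated site, TTCNNNGAA, which is its own reverse complement, and for the core of the interferon-stimulated response element, GAAANNGAAA, on both strands. RefSeq (GRCh38.p14) windows were matched for 7 of the 9 genes, all but IFNAR2 and IRF7, 11 windows in all. The gamma-activated site was found in 2 of the 7 genes, in 1 window each of IRF1 and IRF9, where 9.38% of all 27305 genes hold it in a window (7.66% of 35116 windows). The response element core was found in 0 of the 7 genes, where 4.38% of all genes hold it (3.57% of windows). The stretches around both matches are shown because these are the members called higher under A1331852 whose start regions hold a letter match to a STAT site; the match is in capitals, with 60 bases before and 20 after it, written 5′ to 3′ on the strand of the gene.
IRF1, chr5:132490869-132490957, minus strand, GRCh38.p14, positions -184 to -96: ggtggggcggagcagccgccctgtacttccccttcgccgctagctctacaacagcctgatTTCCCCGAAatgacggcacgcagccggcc
IRF9, chr14:24161142-24161230, plus strand, GRCh38.p14, positions -123 to -35: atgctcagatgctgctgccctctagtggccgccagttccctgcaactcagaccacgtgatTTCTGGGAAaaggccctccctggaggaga
The matched letters lie at -124 to -116 in IRF1 and at -63 to -55 in IRF9. They describe the sequence, and no binding was measured.

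IRF7 (chromosome 11, 612553 to 615983, minus strand), the factor that amplifies type I interferon transcription, had the widest range of group means among the 9 genes, 7.31-fold. Under DMSO it was 8.39, 9.65 and 5.32 CPM in WT and 31.1, 32.0 and 22.3 CPM in KO. All KO libraries exceeded all WT libraries, and the difference was 3.72-fold or 1.89 ± 0.44 on the log2 scale (edgeR adjusted p = 0.0113). Within batches it was 1.97 in batch 1 and 1.75 in batch 2 on the scale of log2(CPM + 0.5). The call was lost without WT replicate 1, WT replicate 3 or KO replicate 3, where the adjusted p was at most 0.0643 and the change at least 1.81.

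Under A1331852 IRF7 was 3.57, 5.23 and 13.9 CPM in WT and 27.8, 56.9 and 80.9 CPM in KO. The groups did not overlap, although replicate 3 was the highest and replicate 1 the lowest in both. KO over WT was 7.36-fold or 2.88 ± 0.46 (edgeR adjusted p = 0.000817), called under all 17 alternatives and ranging from 2.50 without KO replicate 3 to 3.63 without WT replicate 3. A1331852 against DMSO gave 1.37 ± 0.54 in KO cells, which was not called (edgeR adjusted p = 0.112), and 0.39 ± 0.57 in WT cells (adjusted p = 0.825). The difference of those responses was 0.99 ± 0.62 (adjusted p = 0.627), and 1.08 with an adjusted p of 0.0475 with the replicate block within treatments. Without WT A1331852 replicate 3 the WT value turned to -0.37 (adjusted p = 0.806) and the difference became 1.75 (adjusted p = 0.0666); without KO A1331852 replicate 3 the difference was 0.58 (adjusted p = 0.681).

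IRF7 was also the gene of the 9 that was called in both lines. In A498 it was 19.97 and 18.5 CPM in deficient and 8.06 and 8.69 CPM in addback libraries, which did not overlap. The difference was 2.26-fold or 1.18 ± 0.16 (edgeR adjusted p = 0.000109), and it was called under all 11 alternatives. KO over WT in DMSO minus deficient over addback in A498 was 0.69 ± 0.62, with an interval of -0.63 to 2.00 and an adjusted p of 0.526, so these data do not show that the lines differ and do not show that they act alike.

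**Figure D3:**
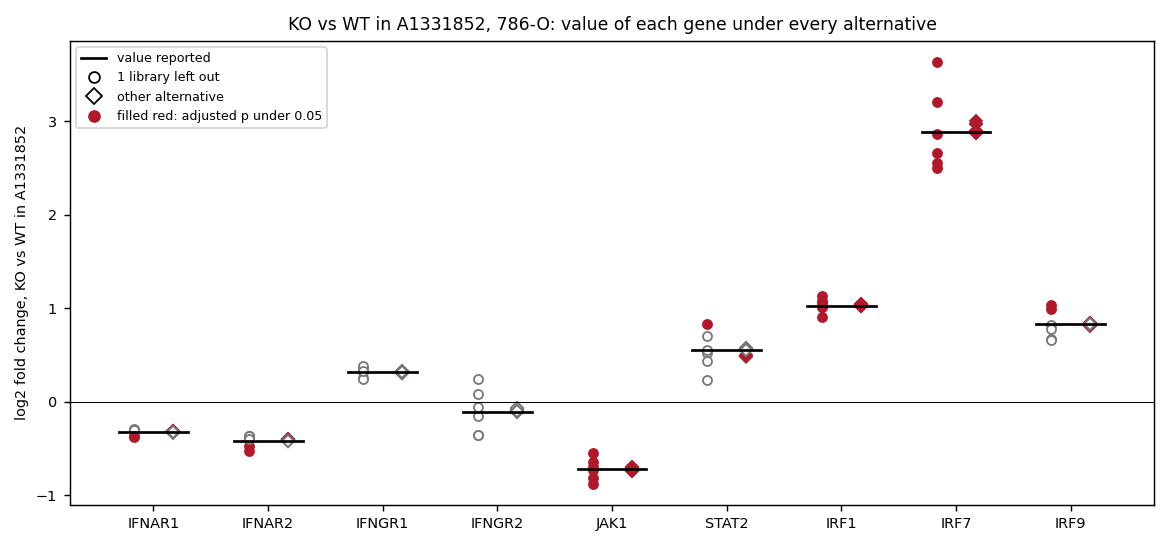
Log2 fold change of KO over WT under A1331852 (vertical axis) for each gene: the value reported (line), the values with 1 library left out (circles) and those under other alternatives (diamonds), filled red where the adjusted p is under 0.05. JAK1, IRF1 and IRF7 are called under all 17 alternatives, and IFNAR2, IFNAR1 and IRF9 under 7, 10 and 10 of them.

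Levels were set side by side between genes only per kilobase of exon (CPM per kilobase, RPKM), over all exon bases in the files. In WT cells in DMSO JAK1 was the highest of the 9, at 33.4 ± 1.83 RPKM (SD, n = 3), followed by IFNGR2 at 16.6 ± 1.28 and STAT2 at 7.16 ± 1.17 RPKM. IRF9 was the lowest, at 0.362 ± 0.050 RPKM, with the shared bases included in its length. In KO cells under A1331852 the highest 3 were IRF7 at 21.1 ± 10.2, IFNGR2 at 19.95 ± 6.01 and JAK1 at 14.7 ± 3.32 RPKM, which all lie within 1 SD of the IRF7 mean. In A498 addback cells IFNGR2 led at 52.2 ± 3.15 RPKM (SD, n = 2), ahead of JAK1 at 24.6 ± 0.481 RPKM.

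Across the 6 groups, the order of the group means differed from gene to gene. IFNAR1 and IFNGR1 were higher in both A498 groups than in any 786-O group, with no overlap, whereas STAT2 and IRF9 were lower in both. For IRF7 the order ran from KO under A1331852 through KO in DMSO, A498 deficient, A498 addback and WT in DMSO to WT under A1331852; the first 2 overlapped each other, and so did neighbours among the last 3. For JAK1 WT in DMSO and A498 deficient overlapped at the top, the next 3 groups (A498 addback, WT under A1331852, KO in DMSO) overlapped, and KO under A1331852 lay below all other groups. A498 deficient (352.4 to 471.3 CPM) also just overlapped WT under A1331852 (274.4 to 352.6 CPM). For IFNAR2 A498 deficient, at 16.6 to 20.2 CPM, overlapped both A498 addback (18.8 to 19.98 CPM) and WT in DMSO (16.7 to 17.9 CPM), which did not overlap each other, and both KO groups overlapped at the bottom.

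The other genes of the pathway were taken from 7 lists of 90 genes, chosen with earlier results of these data known. Their tests were not repeated under the alternatives or with a library left out. Of 10 interferon genes 9 did not pass the low-count filter, IFNB1 and IFNG included. Of these, IFNL1, a lambda interferon named after its values were seen, held 16 counts over the KO libraries under A1331852, at 0.213 to 0.398 CPM in all 3, and 0 in every other group. IFNB1, the beta interferon, held 6 counts over those 3 libraries, 0.053 to 0.156 CPM, and 1 to 3 counts in each other group, too few for a comparison. The remaining one, IFNE, an interferon best known from epithelia, was higher in the KO group under A1331852 (1.32 against 0.454 CPM in WT, edgeR adjusted p = 0.0216) and in deficient A498 cells (0.844 against 0.191 CPM, adjusted p = 0.0195). Of 4 other receptor chains and kinases, 1 was called higher and 1 lower in KO under DMSO, where 18.5% of all genes were called. Under A1331852 2 of the 4 were higher and 1 was lower, where 28.2% of all genes were called. The one that fell was IFNLR1, the lambda interferon receptor chain, from 6.45 to 1.35 CPM under DMSO (-2.26 ± 0.26, edgeR adjusted p = 0.000152) and from 5.84 to 1.44 CPM under A1331852 (-2.03 ± 0.27, adjusted p = 0.000245). TYK2, the kinase on IFNAR1, was called higher in both (by 0.36 ± 0.11, edgeR adjusted p = 0.0418, and 0.47 ± 0.11, adjusted p = 0.00905), and JAK2 under A1331852 (0.84 ± 0.17, adjusted p = 0.00385). Under DMSO the TYK2 libraries overlapped, at 99.4 to 171 CPM in WT and 141 to 206 CPM in KO. In A498 0 of 3 tested were higher and 1 was lower, IL10RB, the chain paired with IFNLR1 (-0.93 ± 0.27, edgeR adjusted p = 0.0192). There 30.2% of all genes were called. So short a list was not tested against those shares.

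Among 5 other STATs tested, 0 were called between KO and WT under DMSO and 1 was lower under A1331852, STAT4 (1.22 to 0.487 CPM, edgeR adjusted p = 0.0431). Its libraries overlapped there, at 0.550 to 1.95 CPM in WT and 0.426 to 0.571 CPM in KO. In deficient A498 cells STAT4 was higher (8.44 against 2.68 CPM, 1.63 ± 0.26, adjusted p = 0.000278) and STAT5B lower (-0.41 ± 0.13, adjusted p = 0.0296). Of 3 other IRFs tested, 1 was called higher in KO in both treatments, IRF2, which binds the sites of IRF1 (0.63 ± 0.18, adjusted p = 0.0328, and 0.86 ± 0.18, adjusted p = 0.00476). In A498 1 of 3 was called, IRF5, lower in deficient cells (-1.18 ± 0.20, edgeR adjusted p = 0.000457). Of all genes tested, 18.5% were called under DMSO, 28.2% under A1331852 and 30.2% in A498. Lists of 3 and 5 genes were not tested against those shares.

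Of 13 inhibitors of the pathway, 0 were higher and 1 lower in KO under DMSO, where 18.5% of all genes were called. Under A1331852 3 were higher and 2 lower, where 28.2% of all genes were called. Those higher included USP18, which blocks signalling at IFNAR2 (7.36 to 20.3 CPM, 1.47 ± 0.27, edgeR adjusted p = 0.00185), and SOCS1, which blocks JAK kinases (2.16 to 5.52 CPM, 1.37 ± 0.32, adjusted p = 0.00735). In A498 1 was higher and 3 were lower, among the latter SOCS3 (-0.79 ± 0.16, edgeR adjusted p = 0.00195), where 30.2% of all genes were called. The counts of these 13 genes were not tested against those shares.

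Downstream, of 35 targets of type I interferon tested, 12 were higher and 0 lower in KO under DMSO, with a median log2 fold change of 0.53, and 33 were higher and 0 lower under A1331852, with a median of 2.05; of all genes tested, 18.5% and 28.2% were called in either direction. OASL, an antiviral relative of the oligoadenylate synthetases, was 10.97 against 4.43 CPM in the first comparison and 105.9 against 5.57 CPM in the second. A1331852 against DMSO called 25 of the 35 higher in KO cells, where 13.5% of all genes were called. In WT cells it called 0 (5 at an unadjusted p under 0.05), where 0.141% of all genes were called, so 0 lies near that share. Those responses differed for 9 of the 35, where 0.295% of all genes were called. Only 1 DMSO library per genotype shares the batch of the A1331852 libraries. In deficient A498 cells 18 of 34 were higher and 2 were lower; IFI44L, an interferon-induced gene, was 57.3 against 13.9 CPM. Of 13 targets of interferon gamma, 1 was higher and 1 lower in KO under DMSO, 9 higher and 0 lower under A1331852, and 5 higher and 2 lower in deficient A498 cells, where 30.2% of all genes were called. The one that was lower under DMSO was ICAM1, an adhesion molecule that other signals also control (186 to 68.2 CPM, -1.44 ± 0.40, edgeR adjusted p = 0.0251).

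**Figure D4:**
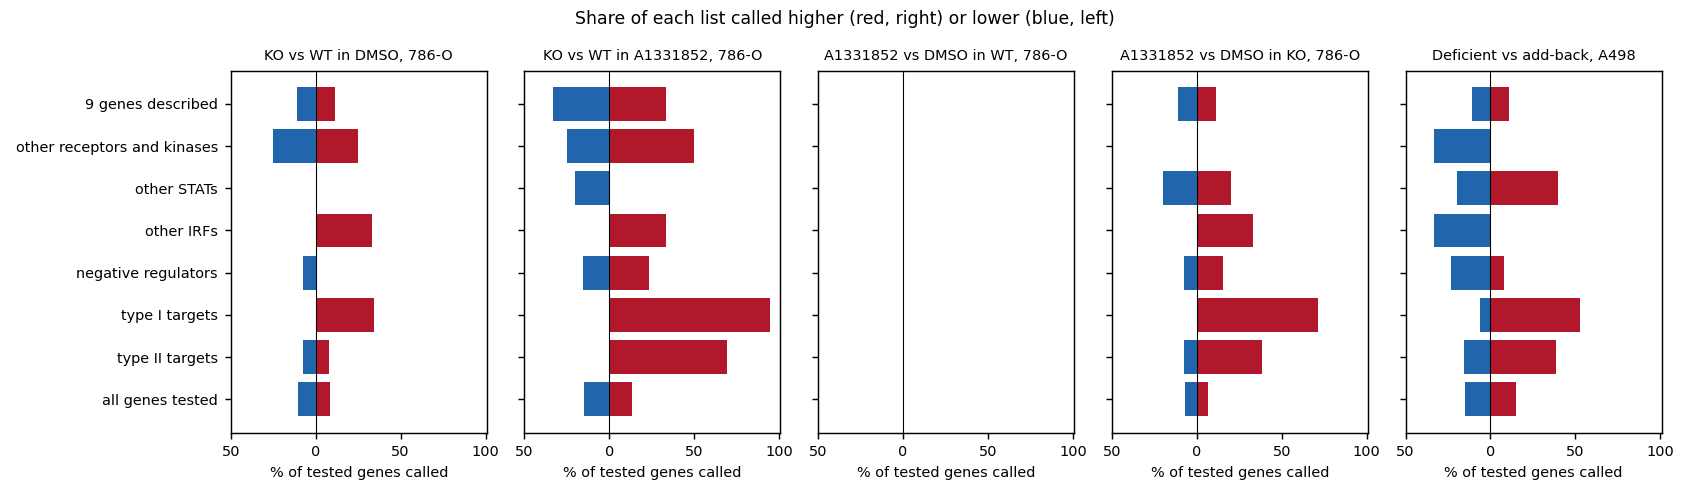
Percent of the tested genes of each list called higher (red, to the right) or lower (blue, to the left) at an adjusted p under 0.05 in the 5 comparisons of 2 groups, with all genes tested in the bottom row. Type I targets reach 33 of 35 higher in KO cells under A1331852, while the 9 genes described divide into 3 higher and 3 lower.

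Genes whose pattern was close to that of each member were read from the Pearson correlation of log2 CPM over the 12 libraries of 786-O, among 12629 protein-coding genes. These libraries differ in depth, batch, genotype and treatment, whose part in the correlations was not tested, so the values are descriptions. For IRF7 they were ITPRIPL2 and NUB1 (both r = 0.983) and IFITM3 (r = 0.979), the last a type I target that blocks virus entry. For IRF1 the first was SLC8B1 (r = 0.976), followed by TNFAIP3 (r = 0.960), an inhibitor of NF-kB signalling. For JAK1 it was EYA3 (r = 0.973), for IFNAR2 CYBA (r = 0.973), for IFNGR1 SH3BGRL2 (r = 0.959) and for IFNGR2 UST (r = 0.981). CCDC191 was among the 3 most like IFNAR1 (r = 0.960). STAT2 and IRF9 had the lowest best matches, KLHL11 (r = 0.926) and ITGA11 (r = 0.919).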

How the data were processed

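Human clear cell renal carcinoma lines were profiled by poly(A) RNA sequencing (paired reads, NEBNext Ultra II library kit, per the labels' protocols). The authors deposited raw counts, 1 table per library with fragments counted per gene name over exons by featureCounts 1.5.0-p3 (paired, reverse stranded, GENCODE 41, uniquely mapped primary alignments, per the file headers); the submitters' processing notes also name STAR, MultiQC 1.7, DESeq2 and hg38. Total counts were 14172118 to 36037616 a library.

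CPM used TMM factors over 16 libraries. Tests were edgeR 4.0.16 quasi-likelihood fits in R 4.3.3 (TMM, filterByExpr with a minimum count of 10, Benjamini-Hochberg over all genes tested): all 12 libraries of 786-O with batch as a term, the 4 of A498 apart, and all 16 with batch for the difference between lines. Intervals are 95%. The comparisons of KO with WT in each treatment and of the A498 groups were tried on simulated counts that held no batch effect. Those of A1331852 with DMSO and the tests of a difference were not tried in this way. Alternatives used RLE or upper-quartile factors, no filter, a mean of at least 50 counts, DESeq2 1.42.0, limma voom 3.58.1, no batch term, replicate blocks, 1 batch, only the groups compared, and each library left out; group levels were also computed from library totals.

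Titles number the replicates. Same-numbered KO and WT libraries deviated together from their group means (r = 0.691 to 0.810 under DMSO, 0.318 to 0.592 under A1331852). The titles do not say that the numbers are pairs. Fits that take them as pairs within a treatment are therefore alternatives only, and their adjusted p-values rest on that assumption. Under DMSO replicates 1 and 2, both of batch 2, correlated across numbers as well (r = 0.665 and 0.716), so there the numbers cannot be told apart from the batch. Under A1331852, all of batch 1, replicate 3 of the 2 genotypes matched best (r = 0.592). Replicates 1 and 2 were hardly told apart there, with r of 0.318 and 0.367 for the same number and 0.204 and 0.293 for different numbers. Between treatments r was -0.059 to 0.101, which pairs nothing, and A498 has only 2 numbers. No replicates agreed within counting noise: the mean chi-square per gene was 3.43 to 139, and WT A1331852 replicate 3 stood apart (98.2 and 68.8 against the others, 25.8 between those). DMSO replicates 1 and 2 lay closest, at 3.92 in WT and 3.43 in KO, against 103 to 139 between either and replicate 3. They may be near to technical repeats, which was not tested.

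The members, the 7 pathway lists, the markers and the naming rule (all 9 members and SETD2; up to 4 called genes per list and comparison with the smallest adjusted p; the 3 most correlated genes) were chosen with earlier results of these data known. RIGI was read as DDX58, its name in the files. Some genes that these rules would name are not reported here.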

Additional observations from a re-analysis of the deposited data

Results flagged for a closer look

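The change from WT to KO in 786-O and that from addback to deficient cells in A498 differed, by a test of the difference itself, for JAK1 and for SETD2, the former in few of the alternatives. For JAK1, KO minus WT in 786-O under DMSO less deficient minus addback in A498 was -0.82 ± 0.25 on the log2 scale (edgeR adjusted p = 0.0427), from a fall of 0.46 in 786-O and a rise of 0.32 in A498, neither called alone. For SETD2 the difference was -1.24 ± 0.29 (edgeR adjusted p = 0.0106), from -1.21 in 786-O and 0.00 in A498, whose labels its transcript did not separate; it was not called without A498 deficient replicate 2 or addback replicate 1 (adjusted p up to 0.0782). The JAK1 call held without A498 deficient replicate 1 (adjusted p = 0.0318) and was lost without any of the other 9 libraries compared (up to 0.222), with RLE or upper-quartile factors, at a mean of at least 50 counts and with no batch term (up to 0.0921), and 5 of 18 alternatives kept it. Line, batch and the way SETD2 was changed cannot be told apart here.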

How the results depend on the processing

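Of 1052 values of the 9 genes under alternatives, 963 stayed on their side of the threshold, 49 lost a call and 40 gained one; 0 called values changed sign and 43 uncalled ones did. The number of the 9 genes called in KO against WT under DMSO, 2, was 7 in batch 2 alone and 4 with only the groups compared, and 1 to 2 with 1 library left out. Batch 2 alone holds DMSO replicates 1 and 2, which lay closest together (mean chi-square per gene 3.92 in WT and 3.43 in KO). Under A1331852, 6 became 3 without the batch term, 3 in batch 1 alone, 3 with only the groups compared, 3 to 6 with 1 library left out, and 8 with the replicate block within treatments. For A1331852 in WT, 0 became 2 with the replicate block. For A1331852 in KO, 2 became 1 without the batch term, 0 in batch 1 alone, 1 with only the groups compared, 5 with the replicate block, and 1 to 2 with 1 library left out. For the difference of responses, 0 became 2 without a filter, 1 by DESeq2, 1 with the replicate block, 2 with that within treatments, and 0 to 1 with 1 library left out. In A498, 2 became 4 with the replicate block, whose numbers share no known source, and 2 to 4 with 1 library left out. For the difference between lines, 1 (JAK1) became 0 with RLE factors, 0 with upper-quartile factors, 0 at a mean of 50 counts, 0 without the batch term, 2 without a filter, 3 with the replicate block, and 0 to 1 with 1 library left out. The cause of these shifts was not tested, beyond the smaller number of libraries where some are left out. The lone library of a group was assumed to vary like the others.

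Over all genes, the lowest and highest number called was 1490 and 9276 around 3001 (KO against WT, DMSO), 2287 and 6460 around 4588 (A1331852), 0 and 2831 around 23 (A1331852 in WT), 85 and 4311 around 2201 (in KO), 0 and 647 around 48 (difference of responses), 2246 and 6272 around 4657 (A498), and 1067 and 3972 around 2362 (lines). With library totals in place of TMM factors, 14 of 54 group levels moved by more than their SD. IRF9 had 11 to 115 counts a library, the fewest of the 9 genes; the part of depth in its uncalled results was not tested.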
